A study of Mus musculus with 12 samples.

Results

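Serpins are a family of proteins built on a common fold, most of which trap and inactivate serine or cysteine proteases. All rows whose gene symbol begins with Serpin were taken from count tables of mouse endometrial epithelial organoids, which gave 65 genes of the 26264 listed. Of these, 28 belong to clade B, 36 to the secreted clades A, C, D, E, F, G and I, and 1, Serpinh1, to clade H. At least 1 read was counted for 53 members, 37 members had enough reads to be tested, and 12 had no read in any library.

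An inhibitory serpin presents an exposed reactive loop to a protease, is cut in that loop and changes shape, which locks the protease in a covalent complex that cells then clear. Clade B members lack a classical signal peptide and mostly act inside cells, where they protect epithelia and leukocytes from leaked proteases. Most members of the other clades are secreted and act in plasma and tissue fluid, on clotting, complement, fibrinolysis and elastases. Some members do not inhibit proteases, among them Serpinb5 (maspin), the hormone carriers Serpina6 and Serpina7, Serpinf1 (pigment epithelium-derived factor) and Serpinh1, a collagen chaperone of the endoplasmic reticulum. In the uterus, serpins are known as components of the epithelial secretions and as brakes on matrix breakdown.

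The organoids were cultures grown in a basement membrane gel from epithelium of mouse uteri and used at passage 3. They were Esr1 knockout (Esr1 KO) or wild type (WT), each with or without estrogen, and each of the 4 groups held 3 bulk RNA-seq libraries. Esr1 encodes estrogen receptor alpha, and the study asks what this receptor does for the identity of the uterine epithelium. The labels give neither the deleted exons nor a Cre driver, nor the age of the mice behind each library, nor the dose and time of the estrogen, and they do not say whether replicates came from separate mice. The spread behind every p-value is that between these libraries and may be technical. The labels also state that organoids of neither genotype responded to estrogen.

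Counted reads per library ran from 75654191 to 108665407. Levels are in CPM, TMM-normalised counts per 1e+06 counted reads. Esr1 itself stood at 16.4 ± 0.403 CPM in untreated KO and 308 ± 50.2 CPM in untreated WT (SD, n = 3), and at 19.7 ± 0.510 CPM in treated KO and 318 ± 33.5 CPM in treated WT. General epithelial markers were present in every library, with a summed level of 3205 to 3738 CPM in untreated KO and 3711 to 4284 CPM in untreated WT. Markers of uterine epithelium summed to 193 to 220.4 CPM in untreated KO and 619 to 690.0 CPM in untreated WT, with 2 higher and 3 lower in KO in both treatments among the 6 tested of 8, and Hoxa10 and Hoxa11 had at most 4 reads over any group. The 8 include Esr1, the gene knocked out, whose levels given above enter both sums. The difference between these sums is therefore not independent of the knockout. Markers of stratified squamous epithelium, such as keratin 5, were higher in KO in 10 of 10 cases, summing to 7558 to 13502 CPM in untreated KO and 10.4 to 14.6 CPM in untreated WT, with none at 0 in those groups. With estrogen they summed to 5532 to 14426 CPM in KO and 12.2 to 15.8 CPM in WT, where 2 of the 10 were at 0. Multiciliated markers were higher in 5 of 5 cases, summing to 599.5 to 928 CPM in untreated KO and 2.40 to 2.84 CPM in untreated WT. Stromal markers summed to 7.19 to 10.7 CPM and 2.47 to 5.21 CPM in the same groups, immune markers to 101 to 125 CPM and 259 to 412 CPM, and hepatocyte markers to at most 0.338 CPM and 0 CPM. Ptprc, the common leukocyte antigen, had no read in untreated KO and 6.41 ± 1.14 CPM in untreated WT. In treated KO, 0 of the 7 immune markers lacked reads. In bulk RNA, fewer cells of a type and less RNA per cell cannot be told apart. The part of these cell type differences in the serpin results was not tested.

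The comparison of KO with WT asks how the family differs between the Esr1 genotypes. Serpins were mostly higher in KO, in both clade B and the secreted clades, while the most abundant WT member, Serpina1e, was lower. A gene was called where edgeR's quasi-likelihood test gave an adjusted p under 0.05, over all 16465 genes tested. Without estrogen 33 of the 37 tested members were called, 27 higher and 6 lower in KO, where 71.7% of all tested genes were called, 37.7% higher and 34% lower. With estrogen 32 were called, 29 higher and 3 lower, against 70.8% of all genes, 36.7% higher and 34.1% lower. In both treatments 27 members were higher and 3 lower (Serpina1e, Serpina16 and Serpinb9b), a called share to be read against 64.9% of all genes, 34.1% higher and 30.8% lower. The 27 members higher in KO had all 6 KO libraries above all 6 WT libraries, as did 34% of all genes tested. Serpina16 was the only tested member with all KO libraries below all WT libraries, which held for 31% of all genes.

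The filter on low counts shaped these counts, since a gene could pass it through the genotype in which it is high. Of the 37 tested members, 14 reached the filter's level of 0.107 CPM in 3 libraries of KO alone and 2, Serpinc1 and Serpina16, in 3 libraries of WT alone. The other 21 reached it in both genotypes, and of these 13 were higher in KO in both treatments, 2 lower and 6 neither. Among the 14000 genes that reached it in both genotypes, 28.8% were higher and 33.9% lower. In the same class, 7 of 9 clade B members were higher and 1 lower, and 5 of 11 secreted members were higher and 1 lower.

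Large differences were frequent. In both treatments 23 of the 37 tested members had a fitted fold of at least 8 in favour of KO, which 12.6% of all genes reached, and they comprised 10 of 16 clade B members, 12 of 20 secreted members and Serpinh1. All 14 members that passed the filter through KO alone are among these 23, and passing in that way favours a large fold. Among them Serpina3f had no WT read, and against the floor of 3 reads its fold with estrogen is only known to be at least 7.001. The median log2 fold change of the tested clade B members was 5.11 without estrogen and 4.55 with it, and that of the tested secreted members was 4.30 and 4.02. Over all genes the medians were 0.0390 and 0.0204. The medians of both clades include the members that passed the filter through KO alone. With genes at 0 in a group set to their lower bound, the median of all 37 members was 4.28 without and 3.93 with estrogen. Clade B and secreted members overlapped widely in their fold changes, as the plot of fold changes by clade shows, and no test of a difference between the clades was made. Scaling by library size alone, in place of TMM, moved the median of all genes to 0.265 without and 0.205 with estrogen, and the share of called genes that were higher to 65.5% and 63.1%, against 52.5% and 51.8% with TMM. Clade B then still had 14 members higher in both treatments, and the secreted clades had 13.

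**Figure D1:**
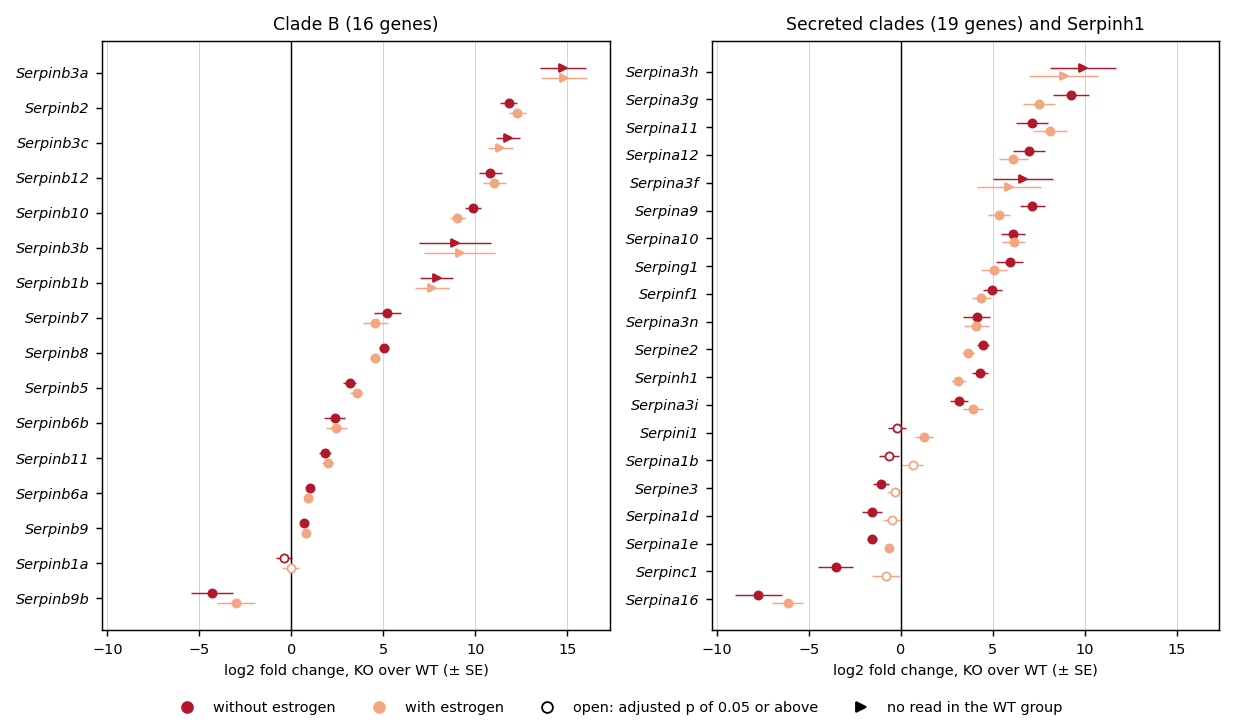
log2 fold changes of 36 tested serpins, KO over WT, with their standard errors (horizontal axis), without and with estrogen, for clade B on the left and for the secreted clades and Serpinh1 on the right. Open symbols mark an adjusted p of 0.05 or above, and triangles mark genes with no read in the WT group, whose fitted value depends on the prior count and is no bound, as does that of Serpina16 without estrogen, which had no KO read. Most members of both panels lie to the right of 0, while Serpinb9b, Serpina1e and Serpina16 lie to its left in both treatments.

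The clade B genes lie in 2 clusters of the mouse genome. The chromosome 1 cluster holds 12 members in an unbroken row, and 10 of them had enough reads to be tested. All 10 were higher in KO in both treatments, 9 of them by at least 8-fold as fitted, where 34.1% and 12.6% of all genes were. Of the 10, only Serpinb5, Serpinb8, Serpinb10 and Serpinb11 reached the filter's level in 3 libraries of both genotypes. The others passed the filter through KO alone, which favoured a higher KO value. The genes next to the row, Vps4b and Kdsr on one side, were not called (edgeR adjusted p from 0.165 to 0.552 over both genes and both treatments). The next genes on the other side had too few reads to test. The promoter sequences of the tested genes of the row are shown because all were called higher in KO. They are the 150 bases before the annotated start, 5′ to 3′ on the strand of the gene, from RefSeq on build GRCm38.p6, an older build than the GRCm39 on which reads were counted. Capitals mark matches to the AP-1 motif TGANTCA and to the TATA box TATAAA on either strand.
Serpinb5 (chr1:106861025-106861174, plus strand): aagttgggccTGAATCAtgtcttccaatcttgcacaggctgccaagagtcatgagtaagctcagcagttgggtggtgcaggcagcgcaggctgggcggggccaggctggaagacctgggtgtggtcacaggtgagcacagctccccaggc
Serpinb12 (chr1:106934299-106934448, plus strand): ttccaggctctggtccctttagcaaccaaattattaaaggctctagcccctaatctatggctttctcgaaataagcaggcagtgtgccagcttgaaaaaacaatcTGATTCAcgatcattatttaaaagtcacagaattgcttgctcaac
Serpinb11 (chr1:107362164-107362313, plus strand): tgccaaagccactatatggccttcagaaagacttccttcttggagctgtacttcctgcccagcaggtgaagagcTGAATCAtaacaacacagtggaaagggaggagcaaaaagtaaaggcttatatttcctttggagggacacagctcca
Serpinb7 (chr1:107422539-107422688, plus strand): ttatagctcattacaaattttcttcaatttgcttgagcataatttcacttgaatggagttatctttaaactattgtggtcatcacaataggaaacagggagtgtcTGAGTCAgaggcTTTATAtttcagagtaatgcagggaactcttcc
Serpinb2 (chr1:107511273-107511422, plus strand): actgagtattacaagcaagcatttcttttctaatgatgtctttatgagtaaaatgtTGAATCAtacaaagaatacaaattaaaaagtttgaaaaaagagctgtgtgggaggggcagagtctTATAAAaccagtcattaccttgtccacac
Serpinb10 (chr1:107528853-107529002, plus strand): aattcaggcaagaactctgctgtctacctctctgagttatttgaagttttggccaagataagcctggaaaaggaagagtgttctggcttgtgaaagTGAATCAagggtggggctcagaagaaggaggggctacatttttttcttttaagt
Serpinb8 (chr1:107589856-107590005, plus strand): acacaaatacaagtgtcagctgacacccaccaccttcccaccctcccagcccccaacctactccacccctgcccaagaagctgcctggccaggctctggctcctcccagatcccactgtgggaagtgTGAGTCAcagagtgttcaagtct

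These 7 promoters hold an AP-1 match, the site bound by Fos and Jun proteins, within 250 bases before the start. It begins 140 bases before the start in Serpinb5, 45 in Serpinb12 and Serpinb7, 94 in Serpinb2, 54 in Serpinb10 and 23 in Serpinb8. Serpinb11 has a match 76 bases before the start and another at 181, outside the stretch shown. AP-1 matches were found in 7 of the 11 promoters of this cluster that the table lists, in 0 of 15 of the chromosome 13 cluster, in 4 of 18 of the Serpina cluster on chromosome 12 and in 6.87% of 27025 promoters of the same length. Matches to the TATA box on either strand were found in 7 of 11 promoters of the chromosome 1 cluster, against 3504 of the 27025. That of Serpinb12 begins 220 bases before the start, and those of Serpinb7 and Serpinb3d lie on the opposite strand. The 3 neighbouring members Serpinb3a, Serpinb3b and Serpinb3c have no AP-1 match and share a TATA box, shown in capitals.
Serpinb3a (chr1:107052304-107052453, minus strand): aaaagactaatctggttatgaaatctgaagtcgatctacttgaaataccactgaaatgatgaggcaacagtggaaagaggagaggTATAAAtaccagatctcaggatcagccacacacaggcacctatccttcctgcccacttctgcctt
Serpinb3b (chr1:107161115-107161264, minus strand): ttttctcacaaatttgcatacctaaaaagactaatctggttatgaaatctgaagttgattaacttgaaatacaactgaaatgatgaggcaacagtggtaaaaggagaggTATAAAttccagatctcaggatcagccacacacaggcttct
Serpinb3c (chr1:107278372-107278521, minus strand): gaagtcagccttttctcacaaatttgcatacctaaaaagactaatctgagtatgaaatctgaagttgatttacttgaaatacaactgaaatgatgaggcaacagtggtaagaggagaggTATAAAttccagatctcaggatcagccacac

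Over the 250 bases, the promoter of Serpinb3a was identical to that of Serpinb3b at 209 of 226 aligned bases and to that of Serpinb3c at 203 of 216. The full palindromic estrogen response element was in 0 of the 54 serpin promoters in the table and in 0.0629% of all promoters. A single arm of it, AGGTCA, was in 16 of the 54 and in 13.8% of all. Of the 16, 8 lie in the chromosome 13 cluster, and of these only Serpinb6e had a read. The others are Serpinb6d and Serpinb9c to Serpinb9h. The promoters of Serpinb9d to Serpinb9g were 90.6% to 99.1% identical over aligned bases, so these matches are not independent. The HNF1 motif was in 0 of the 54 and in 0.0074% of all promoters. A single arm of the p53 family element was in 3 of the 54 and in 7.18% of all. No AP-1 match overlapped a TATA box in the 10 promoters shown. A match describes letters in this window and not binding, and for Serpinb11, Serpinb7, Serpinb3a, Serpinb3b and Serpinb3c no GENCODE transcript contained the bases that follow the RefSeq start.

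Serpinb3a is the mouse relative of the human squamous cell carcinoma antigens SERPINB3 and SERPINB4, which inhibit cysteine cathepsins and chymotrypsin-like proteases. It had 48.8, 42.2 and 21.1 CPM in the untreated KO libraries and 67.8, 25.4 and 22.1 CPM in the treated KO libraries, and no read in any of the 6 WT libraries. Set against a floor of 3 reads over a group, the KO level stood at least 3260.4-fold higher without estrogen and at least 3509-fold with it (edgeR adjusted p = 3.79e-05 and 3.86e-05). Its neighbours Serpinb3c and Serpinb3b also had no WT read. For Serpinb3c the KO level was at least 412-fold that floor without estrogen and at least 314-fold with it, at KO levels of 3.44 to 5.67 CPM and 2.48 to 4.48 CPM. Serpinb3b had fewer reads, at 0.113 to 1.06 CPM in untreated KO, and at least 54.5-fold above the WT floor. These bounds, and the intervals given for other members, allow at most for counting error and treat each read as independent. Each mate of a pair was counted, and PCR copies of a molecule were not told apart. The bounds may therefore be too high and the intervals too narrow, even for counting error.

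Serpinb2, plasminogen activator inhibitor-2, blocks the urokinase that turns plasminogen into plasmin. Serpinb2 had 106, 64.8 and 90.1 CPM in the untreated KO libraries, against 0.0255, 0.0202 and 0.0232 CPM in the untreated WT libraries. In treated organoids Serpinb2 had 107, 53.4 and 84.0 CPM in KO libraries, against 0.0206, 0 and 0.0225 CPM in WT libraries. KO and WT libraries were far apart, since the 3 untreated WT libraries together held 6 reads and the treated ones 4. For Serpinb2, edgeR gave a log2 fold change of 11.82 ± 0.46 (SE; adjusted p = 6.12e-09) without estrogen and of 12.29 ± 0.48 (adjusted p = 7.37e-09) with it. Serpinb12, known in humans as an inhibitor of trypsin-like proteases, had 13.1, 22.8 and 12.4 CPM in untreated KO and 18.2, 22.7 and 14.0 CPM in treated KO libraries, against 2 reads in all of untreated WT and 2 in all of treated WT. The ratio of the groups was 2125-fold (95% counting interval 588 to 17554) without estrogen and 2468-fold (95% counting interval 683 to 20382) with it, and edgeR called both (adjusted p = 7.54e-08 and 7.52e-08).

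Serpinb10, known in humans as bomapin and best described in blood cells, was near the detection limit in WT. Serpinb10 had 159.5, 119 and 162 CPM in the untreated KO libraries, against 0.102, 0.152 and 0.209 CPM in the untreated WT libraries. In treated organoids Serpinb10 had 166, 84.6 and 154 CPM in KO libraries, against 0.370, 0.0968 and 0.293 CPM in WT libraries. No WT library reached 1 CPM. For Serpinb10, edgeR gave a log2 fold change of 9.87 ± 0.44 (SE; adjusted p = 1.44e-08) without estrogen and of 9.02 ± 0.42 (adjusted p = 2.13e-08) with it. Serpinb8, which inhibits the proprotein convertase furin in humans, was measurable in both genotypes. Serpinb8 had 90.7, 98.4 and 79.7 CPM in the untreated KO libraries, against 2.09, 2.75 and 3.46 CPM in the untreated WT libraries. In treated organoids Serpinb8 had 98.1, 84.6 and 85.2 CPM in KO libraries, against 5.13, 2.42 and 3.91 CPM in WT libraries. Its KO libraries varied little among themselves and did not overlap with WT. For Serpinb8, edgeR gave a log2 fold change of 5.01 ± 0.27 (SE; adjusted p = 4.7e-08) without estrogen and of 4.54 ± 0.26 (adjusted p = 8.9e-08) with it. Serpinb7 (megsin), which humans express in the upper epidermis, had 0.731 to 1.75 CPM in untreated KO and 0.0202 to 0.0463 CPM in untreated WT, and KO exceeded WT on the log2 scale by 5.21 ± 0.74 (SE; edgeR adjusted p = 6.8e-05).

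Serpinb5 (maspin), a serpin of epithelial cells that inhibits no known protease, was detected in all 12 libraries. Serpinb5 had 80.0, 58.8 and 61.1 CPM in the untreated KO libraries, against 5.90, 4.33 and 12.0 CPM in the untreated WT libraries. In treated organoids Serpinb5 had 82.6, 48.5 and 68.6 CPM in KO libraries, against 7.21, 4.72 and 5.18 CPM in WT libraries. The lowest KO library, at 48.5 CPM, was above the highest WT library, at 12.0 CPM. For Serpinb5, edgeR gave a log2 fold change of 3.17 ± 0.36 (SE; adjusted p = 1.5e-05) without estrogen and of 3.54 ± 0.37 (adjusted p = 7.95e-06) with it. Serpinb11, a trypsin inhibitor in the mouse, was the clade B member with the most reads in all 4 groups. Serpinb11 had 521, 498 and 660.3 CPM in the untreated KO libraries, against 132, 155 and 185 CPM in the untreated WT libraries. In treated organoids Serpinb11 had 552, 474 and 639 CPM in KO libraries, against 229, 93.8 and 102 CPM in WT libraries. The groups did not overlap, but treated WT replicate 1 stood above the other 5 WT libraries. For Serpinb11, edgeR gave a log2 fold change of 1.83 ± 0.31 (SE; adjusted p = 0.000265) without estrogen and of 1.97 ± 0.31 (adjusted p = 0.000167) with it. It was the member of the chromosome 1 cluster with the smallest fold change and the only tested one under 8-fold. Serpinb13 and Serpinb3d, the other members of the row, had 2 and 4 reads, all of them in treated KO libraries.

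**Figure D2:**
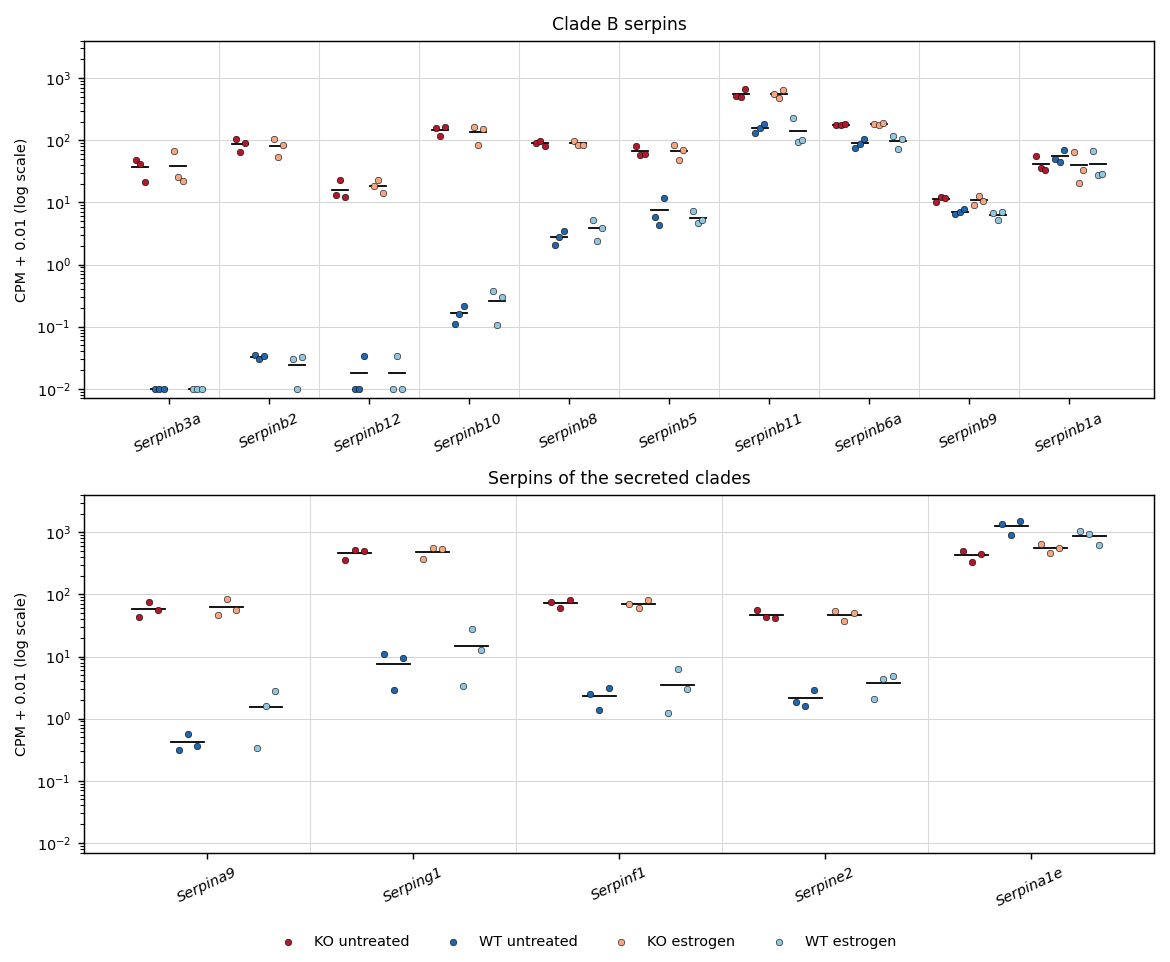
Levels of 15 tested serpins with a group mean of at least 10 CPM, as CPM + 0.01 on a log scale, with a point for each library and a bar for the mean of the 3 libraries of a group. Clade B is above and the secreted clades below, each ordered by mean log2 fold change. At the left of both panels KO and WT points are orders of magnitude apart, at the right they overlap for Serpinb1a, while the KO means of Serpina1e lie below WT in both treatments.

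The chromosome 13 cluster had smaller median fold changes between genotypes, and its tested members went both ways. It holds 16 clade B members, most of them mouse expansions of the Serpinb9 and Serpinb6 genes, and 7 of the 16 had no read. Of the 6 tested members, 4 were higher in KO in both treatments (Serpinb6a, Serpinb6b, Serpinb9 and Serpinb1b), 1 was lower (Serpinb9b) and 1 was not called (Serpinb1a). Over all genes 34.1% were higher and 30.8% lower in both treatments. Serpinb1b passed the filter through KO alone. The median log2 fold change over the 6 was 0.84 without estrogen and 0.83 with it, where that of the 10 tested members on chromosome 1 was 9.38 and 9.09 as fitted and 7.23 and 7.21 with genes at 0 set to their bound. Single members on chromosome 13 ran from -4.29 to 7.89 without estrogen and from -3.01 to 7.63 with it, as fitted. The difference between the clusters was not tested.

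Serpinb6a, an inhibitor of cathepsin G and trypsin-like proteases in the cytosol, was abundant in both genotypes. Serpinb6a had 177, 174 and 184 CPM in the untreated KO libraries, against 75.8, 87.8 and 104 CPM in the untreated WT libraries. In treated organoids Serpinb6a had 180.1, 175 and 192 CPM in KO libraries, against 118, 71.7 and 106 CPM in WT libraries. The KO libraries lay within a narrow band above all WT libraries. For Serpinb6a, edgeR gave a log2 fold change of 1.00 ± 0.16 (SE; adjusted p = 0.000212) without estrogen and of 0.89 ± 0.16 (adjusted p = 0.0005) with it. Serpinb6a overlaps Nqo2, Ripk1 and 1110046J04Rik in the annotation, and reads were counted without regard to strand. Serpinb9, the inhibitor of granzyme B in mice, was higher by less than 2-fold. Serpinb9 had 10.2, 12.3 and 11.9 CPM in the untreated KO libraries, against 6.47, 7.11 and 7.80 CPM in the untreated WT libraries. In treated organoids Serpinb9 had 9.18, 12.7 and 10.4 CPM in KO libraries, against 6.81, 5.12 and 6.90 CPM in WT libraries. These values were separated by genotype in every library. For Serpinb9, edgeR gave a log2 fold change of 0.69 ± 0.16 (SE; adjusted p = 0.0024) without estrogen and of 0.78 ± 0.16 (adjusted p = 0.0011) with it.

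Serpinb1a inhibits the neutrophil proteases elastase, cathepsin G and proteinase 3. Serpinb1a had 56.5, 35.9 and 33.4 CPM in the untreated KO libraries, against 49.2, 44.9 and 70.8 CPM in the untreated WT libraries. In treated organoids Serpinb1a had 65.8, 20.5 and 33.5 CPM in KO libraries, against 67.1, 28.0 and 28.4 CPM in WT libraries. The genotypes overlapped, and replicate 1 was the highest of its group in treated WT and in both KO groups. For Serpinb1a, edgeR gave a log2 fold change of -0.39 ± 0.45 (SE; adjusted p = 0.446) without estrogen and of -0.04 ± 0.45 (adjusted p = 0.933) with it. Its fold change with estrogen turned positive under several other settings, without being called in any. The less abundant paralog Serpinb1b had 82 reads over untreated KO and 88 over treated KO, and none in WT. Its KO level was at least 27.8-fold the WT floor without estrogen and at least 23.7-fold with it (edgeR adjusted p = 0.000167 and 0.000217).

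Serpinb6b had 0.805, 1.30 and 0.856 CPM in untreated KO libraries and 0.178, 0.0809 and 0.324 CPM in untreated WT libraries. It was higher by 2.35 ± 0.57 on the log2 scale without estrogen (edgeR adjusted p = 0.00315) and by 2.45 ± 0.56 with it (edgeR adjusted p = 0.00216). Serpinb9b, a mouse paralog of Serpinb9, ran the other way. Serpinb9b had 0.240, 0.114 and 0.203 CPM in the untreated KO libraries, against 2.88, 2.33 and 5.79 CPM in the untreated WT libraries. In treated organoids Serpinb9b had 0.0344, 0.866 and 0.152 CPM in KO libraries, against 6.71, 1.02 and 0.744 CPM in WT libraries. Treated KO replicate 2 lay above treated WT replicate 3, so the genotypes overlapped with estrogen. For Serpinb9b, edgeR gave a log2 fold change of -4.29 ± 1.14 (SE; adjusted p = 0.00573) without estrogen and of -3.01 ± 1.05 (adjusted p = 0.0236) with it. The call with estrogen was lost without KO replicate 1 (edgeR adjusted p = 0.0575), KO replicate 3 (0.0801) or WT replicate 1 (0.205, at a log2 fold change of -1.33) of the treated groups. The sum of the immune markers was also lower in KO in both treatments, as was Ptprc without estrogen. Their part in this result was not tested.

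Among the secreted serpins, Serpina1e, one of the mouse alpha-1-antitrypsin genes, was by far the most counted in WT and fell in KO. Serpina1e had 501, 327 and 439.9 CPM in the untreated KO libraries, against 1354, 917 and 1495 CPM in the untreated WT libraries. In treated organoids Serpina1e had 639.9, 460.3 and 563 CPM in KO libraries, against 1049, 934 and 621 CPM in WT libraries. Without estrogen the KO libraries lay below the WT libraries, while with estrogen the highest KO library lay just above the lowest WT library. For Serpina1e, edgeR gave a log2 fold change of -1.57 ± 0.24 (SE; adjusted p = 0.000153) without estrogen and of -0.65 ± 0.24 (adjusted p = 0.0314) with it. This is 2.97-fold lower without and 1.57-fold lower with estrogen. The call with estrogen was lost when any of 4 treated libraries was left out, at edgeR adjusted p values of 0.115 without WT replicate 1, 0.0827 without WT replicate 2, 0.105 without KO replicate 2 and 0.0731 without KO replicate 3. The alpha-1-antitrypsin genes are near-identical copies, and reads that mapped to several places were not counted. Of 150-base windows of the Serpina1e transcript, 92.4% occurred in no other gene's transcript, against 49.5% for Serpina1c and 59.3% for Serpina1a, so the split of reads among the copies is uncertain. Hepatocyte markers were near 0 in all groups.

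The other Serpina1 copies were each below 1 CPM in every library. Serpina1d had 0.0571 to 0.124 CPM in untreated KO and 0.140 to 0.440 CPM in untreated WT and was called lower without estrogen (log2 fold change -1.57 ± 0.53; edgeR adjusted p = 0.019), a call lost without untreated WT replicate 3 (0.121), KO replicate 1 (0.0596) or KO replicate 2 (0.070). Serpina1b, at 0.0457 to 0.192 CPM in untreated KO and 0.174 to 0.243 CPM in untreated WT, was not called (edgeR adjusted p = 0.294). Serpina16 lies in the same cluster. It had no read in untreated KO libraries, against 0.382, 0.162 and 0.324 CPM in untreated WT libraries, at least 24.3-fold lower in KO (edgeR adjusted p = 0.000441). With estrogen it had 3 reads in all of KO and 194 in WT, which is 80.1-fold (95% counting interval 27.0 to 392) lower (edgeR adjusted p = 0.000142).

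The Serpina cluster on chromosome 12 holds 25 members, of which 13 were tested. Of these, 9 were higher in KO in both treatments and 2 lower, against 34.1% and 30.8% of all genes. Only Serpina1b, Serpina1d, Serpina1e, Serpina3i and Serpina9 of the 13 reached the filter's level in 3 libraries of both genotypes. Serpina9, known in humans from germinal centre B cells, had the most reads of those that rose. Serpina9 had 43.8, 75.6 and 55.3 CPM in the untreated KO libraries, against 0.306, 0.556 and 0.348 CPM in the untreated WT libraries. In treated organoids Serpina9 had 46.3, 83.1 and 55.6 CPM in KO libraries, against 0.329, 1.56 and 2.77 CPM in WT libraries. The lowest KO library was above the highest WT library. For Serpina9, edgeR gave a log2 fold change of 7.15 ± 0.67 (SE; adjusted p = 3.07e-06) without estrogen and of 5.32 ± 0.59 (adjusted p = 1.28e-05) with it. Its neighbours Serpina11 and Serpina12 had fewer reads. Serpina12 (vaspin), which inhibits kallikrein 7 in humans, had 0.409 to 0.902 CPM in untreated KO and 1 read in all of untreated WT, a ratio of 172-fold (95% counting interval 30.4 to 6822). Serpina11 had 1.42 to 3.23 CPM in untreated KO and 0 to 0.0510 CPM in untreated WT. Serpina10, the protein Z-dependent inhibitor of clotting, had 1.27 to 2.98 CPM and 0 to 0.0695 CPM in the same groups (edgeR adjusted p = 7.54e-06).

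The Serpina3 genes are mouse relatives of the single human alpha-1-antichymotrypsin gene, an inhibitor of cathepsin G and chymases. Of the 11 in the files, 5 were tested and all 5 were higher in KO in both treatments, as were 34.1% of all genes. Only Serpina3i of these reached the filter's level in 3 libraries of both genotypes. The others passed the filter through KO alone, which favoured a higher KO value. Serpina3h is annotated as a transcribed pseudogene. Serpina3i had 8.59, 6.63 and 4.99 CPM in untreated KO libraries and 0.637, 0.586 and 1.04 CPM in untreated WT libraries. Serpina3g had 7.01, 5.997 and 3.33 CPM in untreated KO libraries against 2 reads in all of untreated WT, a ratio of 713-fold (95% counting interval 197 to 5896). Serpina3h and Serpina3f had no WT read and were at least 112-fold and 11.5-fold higher in untreated KO, and Serpina3n, the member best known from inflamed tissue, had 0.216 to 0.366 CPM in untreated KO and 0 to 0.0232 CPM in untreated WT. In treated KO, replicate 1 held the most reads of Serpina3i, Serpina3g, Serpina3h, Serpina3f and Serpina3n. The largest adjusted p of these 5 genes over both treatments was 0.0181 (edgeR).

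**Figure D3:**
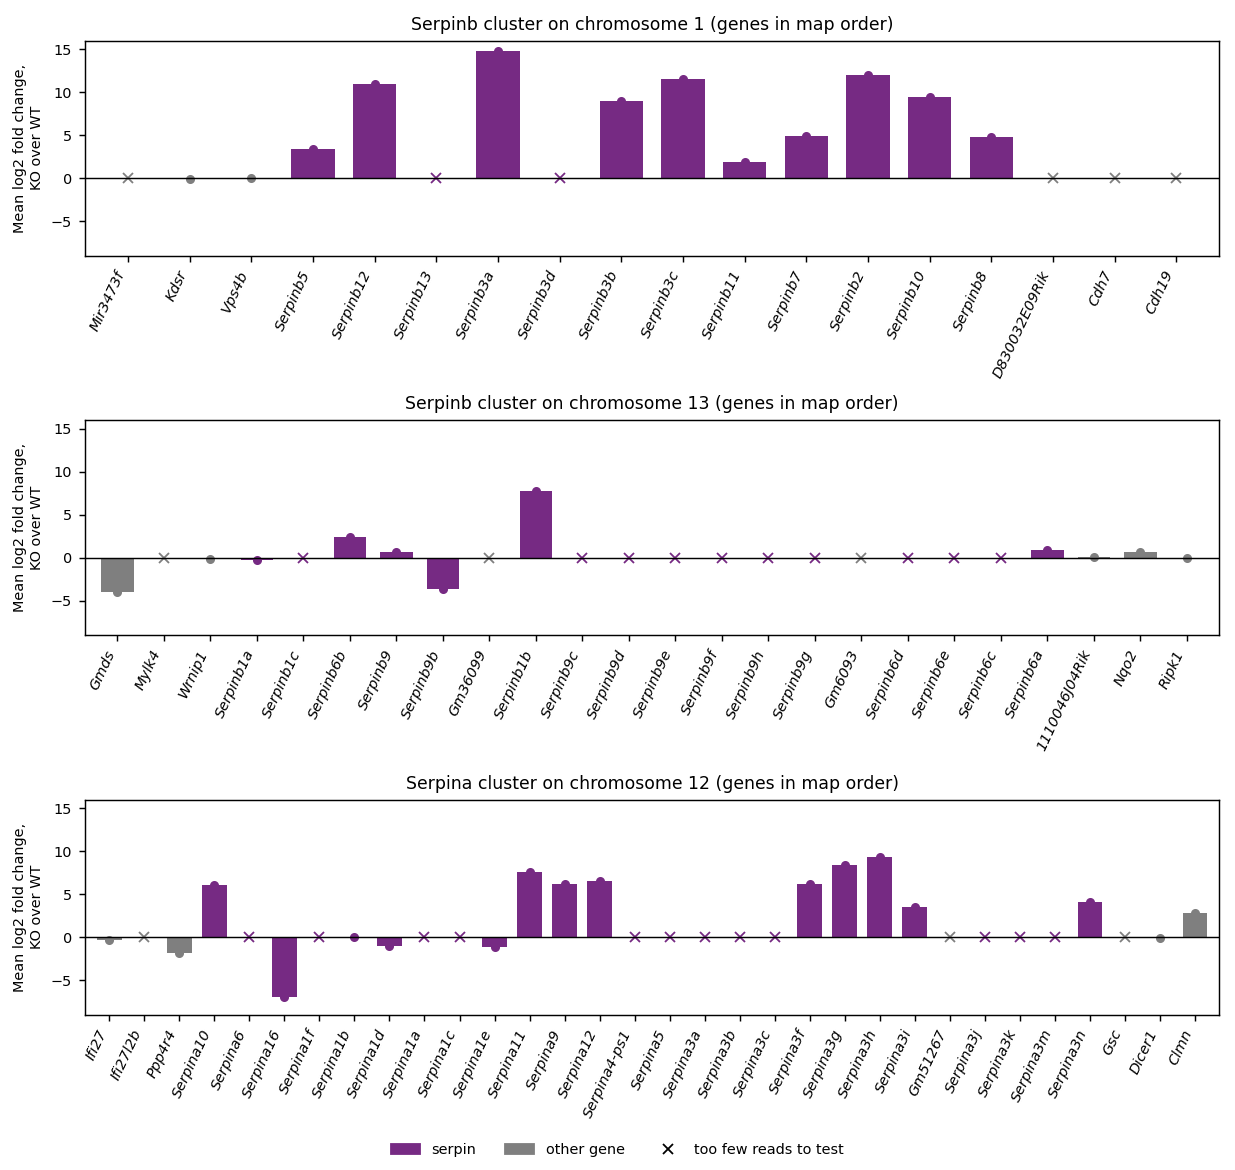
Mean log2 fold change of KO over WT across both treatments (vertical axis) for the genes of the 3 serpin clusters and the 3 genes to each side, in map order, with serpins in purple and other genes in grey. Crosses mark genes with too few reads to test, and the values of genes with no WT read are fitted and are no bounds. All 10 tested members of the chromosome 1 row are positive and its flanking genes Kdsr and Vps4b sit near 0, while the chromosome 13 and chromosome 12 rows mix directions.

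Genes beside the other clusters were read off for comparison after their values had been seen. Beside the chromosome 13 cluster, Gmds was lower in KO (log2 fold change -4.03 ± 0.23 without estrogen; edgeR adjusted p = 7.23e-08), Nqo2 was higher (0.76 ± 0.16; 0.00143), and Wrnip1 and Ripk1 were not called. Beside the Serpina cluster, Ppp4r4 was lower (-1.98 ± 0.22; edgeR adjusted p = 1.08e-05), Clmn was higher (3.07 ± 0.21; 2.5e-07), and Ifi27 and Dicer1 were not called.

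Serping1 is the C1 inhibitor, which restrains the first proteases of complement and plasma kallikrein. Serping1 had 359.5, 509 and 508 CPM in the untreated KO libraries, against 10.8, 2.87 and 9.31 CPM in the untreated WT libraries. In treated organoids Serping1 had 372, 563 and 531 CPM in KO libraries, against 3.37, 27.9 and 12.8 CPM in WT libraries. The lowest KO library, at 359.5 CPM, was far above the highest WT library, at 27.9 CPM, and the WT libraries spread widely among themselves. For Serping1, edgeR gave a log2 fold change of 5.91 ± 0.76 (SE; adjusted p = 3.67e-05) without estrogen and of 5.06 ± 0.72 (adjusted p = 9.04e-05) with it. In KO it was among the most counted serpins of all clades. Serpinf1, pigment epithelium-derived factor, a secreted inhibitor of vessel growth, showed the same order. Serpinf1 had 76.6, 59.6 and 80.7 CPM in the untreated KO libraries, against 2.47, 1.34 and 3.15 CPM in the untreated WT libraries. In treated organoids Serpinf1 had 71.1, 60.5 and 81.4 CPM in KO libraries, against 1.22, 6.18 and 2.94 CPM in WT libraries. No WT library came near the KO range. For Serpinf1, edgeR gave a log2 fold change of 4.97 ± 0.52 (SE; adjusted p = 7.62e-06) without estrogen and of 4.37 ± 0.50 (adjusted p = 1.7e-05) with it.

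Serpine2 (protease nexin-1) inhibits thrombin and urokinase at the cell surface. Serpine2 had 55.9, 42.6 and 41.5 CPM in the untreated KO libraries, against 1.87, 1.58 and 2.87 CPM in the untreated WT libraries. In treated organoids Serpine2 had 53.8, 36.7 and 50.4 CPM in KO libraries, against 2.08, 4.39 and 4.89 CPM in WT libraries. All KO libraries were above all WT libraries. For Serpine2, edgeR gave a log2 fold change of 4.47 ± 0.35 (SE; adjusted p = 6.98e-07) without estrogen and of 3.64 ± 0.33 (adjusted p = 2.58e-06) with it.

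The remaining tested secreted members were below 1 CPM in every library. Serpini1 (neuroserpin), an inhibitor of tissue plasminogen activator, was not called without estrogen and was called higher with it (log2 fold change 1.25 ± 0.50; edgeR adjusted p = 0.041), a call lost in 8 of the 12 fits that left out a library. Serpine3 was called lower without estrogen only (-1.06 ± 0.44; 0.0485), a call lost in 8 of those 12 fits. Serpinc1 (antithrombin), the main plasma inhibitor of thrombin, had 3 reads in all of untreated KO and 39 in untreated WT, 12.8-fold (95% counting interval 4.07 to 64.7) lower (edgeR adjusted p = 0.00637), and was not called with estrogen (adjusted p = 0.373).

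Serpinh1 (Hsp47) stays in the endoplasmic reticulum and helps procollagen fold. Serpinh1 had 5.77, 5.39 and 8.43 CPM in the untreated KO libraries, against 0.166, 0.283 and 0.556 CPM in the untreated WT libraries. In treated organoids Serpinh1 had 6.64, 7.13 and 8.99 CPM in KO libraries, against 0.494, 1.04 and 1.10 CPM in WT libraries. The genotypes did not overlap. For Serpinh1, edgeR gave a log2 fold change of 4.28 ± 0.44 (SE; adjusted p = 5.2e-06) without estrogen and of 3.11 ± 0.40 (adjusted p = 3.66e-05) with it. Of 18 collagen and collagen-folding genes tested, 5 were higher in KO in both treatments and 4 lower, that is 27.8% and 22.2%, shares below the 34.1% and 30.8% of all genes. The median log2 fold change of the 18 genes was -0.14 without estrogen and -0.10 with it. Higher were, by mean log2 fold change, the hemidesmosome collagen Col17a1 (601 ± 201 CPM in untreated KO, 0.0509 ± 0.0280 in untreated WT), Plod2 and Col7a1, the collagen of anchoring fibrils, and lower were Plod1 (14.8 ± 1.64 and 322 ± 18.2 CPM), P4hb, Plod3 and Ppib, which modify or fold procollagen.

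Summed over the clade, clade B reads were higher in KO and the secreted clades were not separated by genotype without estrogen. The 28 clade B genes summed to 1273, 1132 and 1323 CPM in the untreated KO libraries, against 275, 304 and 389 CPM in the untreated WT libraries. The 36 secreted genes summed to 1074, 1106 and 1192 CPM in untreated KO, against 1386, 932 and 1538 CPM in untreated WT, and the 2 ranges overlapped. With estrogen the clade B sum was 1225 ± 189 CPM in KO and 301 ± 124 CPM in WT, and the secreted sum was 1294 ± 60.1 CPM in KO and 907 ± 226 CPM in WT (SD, n = 3). In WT most of the secreted sum was Serpina1e. Without it the other 35 secreted genes summed to 701 ± 112 CPM in KO and 30.5 ± 14.0 CPM in WT without estrogen, and to 739.5 ± 135 CPM in KO and 39.3 ± 17.6 CPM in WT with it. The sums describe the same genes as the tests above and were not tested.

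**Figure D4:**
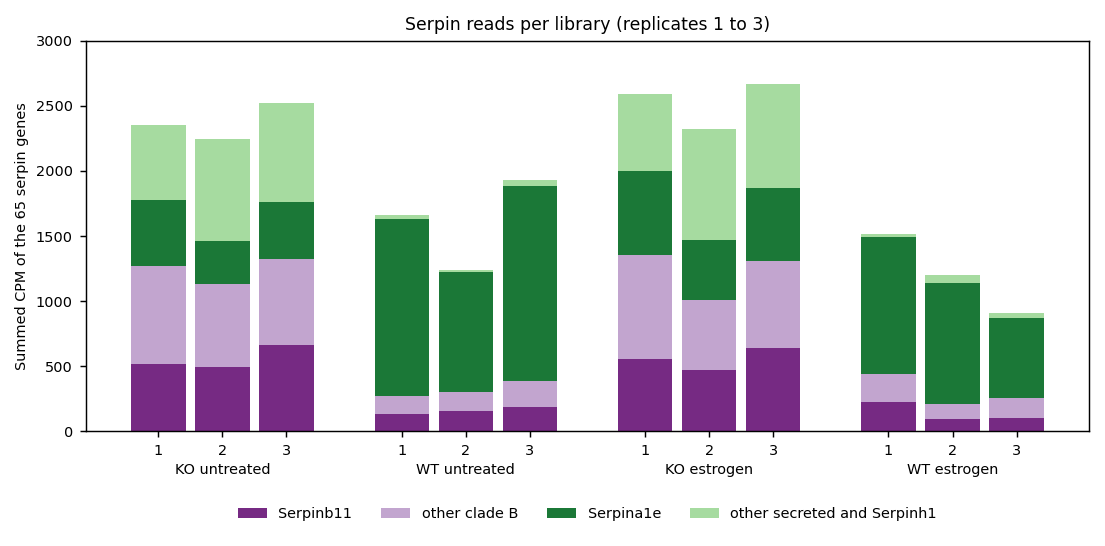
Summed CPM of the 65 serpin genes in each of the 12 libraries, stacked as Serpinb11, the other clade B genes, Serpina1e, and the other secreted genes with Serpinh1. In WT most of each bar is Serpina1e, while in KO the 4 blocks are of similar size.

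The composition of serpin reads therefore differed between the genotypes. Serpina1e took 17.8% ± 3.36 of serpin reads in untreated KO and 77.7% ± 3.70 in untreated WT (SD, n = 3). Serpinb11 took 23.5% ± 2.31 in untreated KO and 10.0% ± 2.31 in untreated WT, and Serping1 took 19.4% ± 3.77 and 0.456% ± 0.211. Per kilobase of transcript, Serpinb11 (269 ± 42.2 CPM per kilobase), Serpina1e (268 ± 55.9) and Serping1 (259.6 ± 48.7) did not differ beyond their spread in untreated KO. They were followed there by Serpinb10 (116 ± 19.2) and Serpinb6a (108 ± 2.94), which also overlapped. In untreated WT Serpina1e stood alone at 797 ± 191 CPM per kilobase, followed by Serpinb11 at 75.4 ± 12.6 and Serpinb6a at 54.0 ± 8.64.

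The proteases and receptors that serpins meet were compared as a list chosen for this family. Of 48 tested genes of the list, 25 were higher in KO in both treatments and 13 lower, that is 52.1% and 27.1%, against 34.1% and 30.8% of all genes. The median log2 fold change of the 48 genes was 1.15 without estrogen and 0.78 with it. Higher were, by mean log2 fold change among genes reaching 10 CPM, the kallikreins Klk7 and Klk8, the membrane protease Tmprss11d, the keratinocyte caspase Casp14 and the collagenase Mmp13. Klk7 had 22.9 ± 8.42 CPM in untreated KO and no read in WT, and Tmprss11d had 167 ± 44.1 CPM in untreated KO and 1.55 ± 1.80 CPM in untreated WT. Lower were the tissue kallikrein Klk1, the matrilysin Mmp7, the clotting trigger F3, cathepsin B (Ctsb) and tissue plasminogen activator (Plat). F3 had 164 ± 40.9 CPM in untreated KO and 5904 ± 358 CPM in untreated WT, and Plat had 111 ± 61.1 and 1210.1 ± 529.7 CPM. The largest adjusted p among these 10 genes in either treatment was 0.0202 (edgeR), for Plat, whose treated libraries overlapped between genotypes.

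Partners of single members were read off after their values had been seen. The complement proteases C1ra and C1s1, targets of Serping1, were higher in KO in both treatments, C1ra at 13.9 ± 1.60 CPM in untreated KO and 0.470 ± 0.174 CPM in untreated WT. Lrp1, the receptor that clears serpin-protease complexes, was higher, at 86.2 ± 4.51 and 5.19 ± 0.917 CPM in the same groups. Furin, which Serpinb8 inhibits in humans, was lower, at 140.0 ± 2.67 and 627 ± 27.1 CPM. Urokinase (Plau), a target of Serpinb2 and Serpine2, was called in neither treatment, at 77.3 ± 10.4 and 104 ± 19.3 CPM. Granzyme B had no read in any library.

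Protease inhibitors of other families were compared in the same way. Of 36 tested, 24 were higher in KO in both treatments and 6 lower, that is 66.7% and 16.7%, against 34.1% and 30.8% of all genes. The median log2 fold change of the 36 genes was 4.38 without estrogen and 4.53 with it. Higher were the stefin-like gene Cstdc5 (813 ± 313 CPM in untreated KO, no read in WT), the epidermal Kazal inhibitor Spink5 (333 ± 117 CPM in untreated KO, 0.00772 ± 0.0134 in untreated WT), Stfa3, Csta1 and A2ml1. Lower were Itih5 (0.0530 ± 0.0474 CPM in untreated KO, 36.6 ± 7.96 in untreated WT), the membrane Kunitz inhibitors Spint1 and Spint2, Timp1 and Cst3. The stefin genes are near-identical copies, and their levels are uncertain.

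The comparison of estrogen with no estrogen asks whether the hormone shifted serpins in either genotype. With edgeR, 0 of the 37 tested members were called in KO, 0 in WT and 0 for the interaction of genotype and estrogen, and 0% of all genes in each. At an unadjusted p under 0.05 it found 0 members in KO, 6 in WT and 2 for the interaction, against 2.5%, 5.36% and 4.41% of all genes. DESeq2 also called 0 serpins in each, while over all genes it called 20 in KO, 63 in WT and 25 for the interaction. Of the 36 members with a read in both KO groups 34 changed by less than 2-fold, and none of the 16 members that reached 10 CPM had an absolute log2 fold change above 0.39 in KO. Of the 31 members with a read in both WT groups 25 changed by less than 2-fold.

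Same-numbered KO libraries deviated together, so the KO comparison was also made within the 3 pairs. Serpina1e was higher with estrogen in 3 of 3 KO pairs, at 639.9, 460.3 and 563 CPM in treated KO replicates 1, 2 and 3, against 501, 327 and 439.9 CPM in untreated ones. Serpinb3c was lower in 3 of 3 pairs, at 4.48, 2.48 and 3.50 CPM in treated KO, against 5.67, 3.44 and 5.000 CPM in untreated KO. In all, 9 of 37 members were higher and 2 lower in 3 of 3 pairs, against 16.9% and 19.6% of all genes. A fit with the replicate block over all 4 groups, with separate blocks for each genotype, called 0 serpins in KO. Its WT blocks joined libraries of the same number, which did not deviate together across genes. A fit on the KO libraries alone with the KO blocks, chosen after seeing the data, called 1 of 35 serpins, Serpina1e, and 3.06% of 15900 genes. There Serpina1e had a log2 fold change of 0.40 ± 0.06 (SE; edgeR adjusted p = 0.00722), and Serpinb3c had one of -0.44 ± 0.11 (edgeR adjusted p = 0.0542).

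The 6 WT members with an unadjusted p under 0.05 were Serpinh1, Serpina9, Serpine2, Serpina1b, Serpina16 and Serpina1e, and none passed the correction. Serpina9 had 0.329, 1.56 and 2.77 CPM in treated WT libraries, against 0.306, 0.556 and 0.348 CPM in untreated WT libraries, a log2 fold change of 1.91 ± 0.63 (SE; edgeR unadjusted p = 0.0118, adjusted p = 0.816). It was higher in 2 of 3 treated libraries, and it was called without treated WT replicate 1 (log2 fold change 2.40, edgeR adjusted p = 0.0475). Serpina1e had a log2 fold change of -0.53 ± 0.24 (SE; edgeR unadjusted p = 0.0487, adjusted p = 0.924) in WT and of 0.39 ± 0.24 in KO. The difference between these, KO minus WT, was 0.92 ± 0.34 on the log2 scale (edgeR unadjusted p = 0.02, adjusted p = 0.974). These fits did not match libraries across treatment. Across genes, untreated WT replicates 1, 2 and 3 deviated together with treated WT replicates 2, 3 and 1. In that order Serpina1e had 1354, 917 and 1495 CPM in untreated WT and 934, 621 and 1049 CPM in treated WT. No fit with that matching was made. Serpinh1 had 0.880 ± 0.336 CPM in treated WT and 0.335 ± 0.2003 CPM in untreated WT, a log2 fold change of 1.38 ± 0.42 (SE; edgeR unadjusted p = 0.00722, adjusted p = 0.707).

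**Figure D5:**
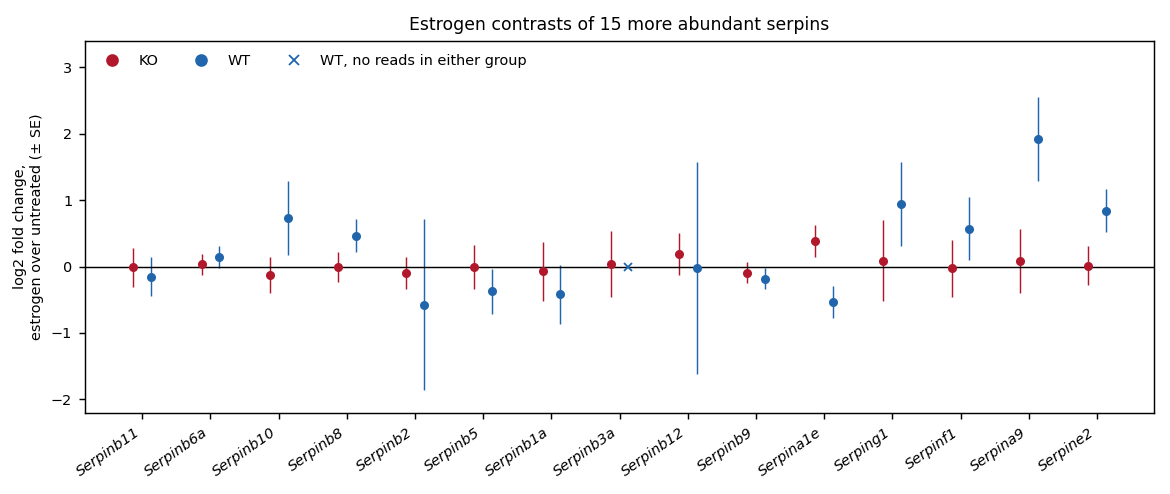
log2 fold change of estrogen over untreated (vertical axis, with standard errors) for 15 serpins with a group mean of at least 10 CPM, in KO and in WT. KO values lie close to 0 and WT values spread more widely, and no value passed the adjusted threshold in this fit without a block. The cross marks Serpinb3a in WT, where both groups had no read.

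Levels also varied among KO libraries in a way that carried across treatment. In 24 of the 37 tested members the same replicate number was highest in untreated and in treated KO, and in 11 of these it was replicate 1, among them Serpinb3a, Serpinb3b, Serpinb3c, Serpinb2, Serpinb5 and Serpinb7. KO replicate 1 also had the highest sum of stratified squamous markers in both treatments, at 13502, 7558 and 9338 CPM for untreated replicates 1, 2 and 3 and 14426, 5532 and 9380.3 CPM for treated ones. In WT the same replicate number was highest in both treatments in 4 of the 31 tested members with a read in both WT groups. The shares over all genes were not computed for these counts. Untreated WT replicates 1, 2 and 3 deviated together across genes with treated WT replicates 2, 3 and 1 (r 0.59, 0.71 and 0.59). The WT count by number therefore cannot show whether levels carried across treatment in WT. Same-numbered KO libraries deviated together across genes (r 0.80, 0.71 and 0.60), so the KO count is not read as particular to serpins. The part of the squamous markers in these serpin levels was not tested.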

How the data were processed

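Bulk RNA-seq of 12 libraries was analysed from 1 deposited table of raw read counts per gene for each library. Per the submitters' processing notes, reads passed FastQC 0.11.7 and Trim Galore 0.6.6 and were aligned with STAR 2.7.10b to GRCm39; the counts were made by the authors with featureCounts (2.0.3 in the notes, 2.0.0 per the file headers). Per the file headers, counting ignored strand, counted each mate of a pair, and dropped reads that mapped to several places or genes, which lowers near-identical copies and overlapping genes. The members, gene lists and tests were chosen with earlier results of these data known.

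Genes were kept with filterByExpr (minimum count 10, minimum total 15), which left 16465 of 26264. Counts were TMM-normalised and fitted with the quasi-likelihood test of edgeR 4.0.16 in R 4.3.3, with all 4 groups sharing the spread, and p-values were Benjamini-Hochberg adjusted over all tested genes. The 5 comparisons were KO against WT without and with estrogen, estrogen against untreated in KO and in WT, and their interaction. SE is the log2 fold change divided by the square root of F. A group with no read was set to a floor of 3 reads, and with 1 to 3 reads a 95% exact interval is given. The floor and the interval treat reads as independent, although each mate of a pair was counted. Serpins reaching a group mean of 10 CPM are given library by library; of each other list, up to 5 genes per direction with the largest change and at least 10 CPM are named, and exceptions are said to be so. Alternatives were library size alone or RLE in place of TMM, DESeq2 1.42.0, 2 other filters, a replicate block, fits on fewer libraries, and leaving out each library. The edgeR steps were tested on simulated data. No 2 libraries of a group agreed within sampling noise (chi-square per degree of freedom 47.2 or more). Untreated and treated KO libraries of the same number deviated together (r across genes 0.80, 0.71 and 0.60). Estrogen in KO was therefore also fitted on the KO libraries alone with the replicate block, an alternative added after seeing the data. WT libraries of the same number did not deviate together (-0.31, -0.27 and -0.61). Untreated WT replicates 1, 2 and 3 did so with treated replicates 2, 3 and 1 (0.59, 0.71 and 0.59). The WT blocks joined libraries of the same number, and no fit used the other matching. Promoters came from RefSeq (GRCm38.p6) and were searched over 250 bases on both strands. Promoters were aligned in Biopython 1.88. The values of 1 secreted member, which enters the counts and sums, are not reported here.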

Additional observations from a re-analysis of the deposited data

How the results depend on the processing

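All 27 serpins higher in KO in both treatments kept that call under each alternative in which they were tested. DESeq2 called 33 serpins without and 32 with estrogen, and 11970 and 11806 of all 16465 genes. Of the counts, secreted serpins lower in both treatments (2 in the report) became 1 with library size alone and 1 with at least 1 CPM in 3 libraries, and clade B serpins lower (1 in the report) became 0 with a replicate block and 0 with only the libraries of the comparison. Leaving out 1 library at a time gave 32 to 34 called serpins without estrogen, 29 to 33 with it, 0 to 1 for estrogen in WT, 12 to 13 secreted serpins higher and 1 to 2 lower, and 14 clade B serpins higher and 0 to 1 lower. Of all genes, 16653 to 16777 were tested in those fits. They called 11002 to 11952 genes without estrogen, 10904 to 11674 with it and 0 to 54 for estrogen in WT. For estrogen in KO the replicate block gave 0 serpins over all 4 groups and 1, Serpina1e, in a fit on the KO libraries alone that was added after seeing the data. With the replicate block, 32 serpins were called without and 29 with estrogen, and 11814 and 11640 of all 16465 genes. The block ended calls with estrogen, among them those of Serpinb9b (edgeR adjusted p = 0.0832) and Serpini1. Same-numbered KO and WT libraries share only a number. The log2 fold change of Serpinb1a with estrogen, which was not called, turned to 0.14 with library size alone, 0.00659 with RLE and 0.00683 with DESeq2, and ran from -0.61 to 0.50 with a library left out. Uncalled Serpini1 without estrogen turned to 0.0141 with library size alone and ran from -0.66 to 0.0841 with a library left out. Where Serpina1e lost its call with estrogen under library size alone (edgeR adjusted p = 0.103), the cause was not tested. Without the count filter 53 serpins were tested, of which 32 were called without and 34 with estrogen. Of all 20803 genes then tested, 11925 were called without and 11731 with estrogen.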

Other observations

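The 16 members with reads but under the filter on low counts are given as reads summed over the 3 libraries of a group. Serpina3j had 22 reads in untreated KO and 2 in untreated WT, and 33 in treated KO and none in treated WT. Serpind1 (heparin cofactor II) had 6 in untreated KO and 20 in untreated WT, and 6 in treated KO and 14 in treated WT. Serpinb6c had 10 in untreated KO and 18 in untreated WT, and 10 in treated KO and 14 in treated WT. Serpinf2 (alpha-2-antiplasmin) had 7 in untreated KO and 14 in untreated WT, and 9 in treated KO and 12 in treated WT. The hormone carriers Serpina6 and Serpina7 had no read in KO, and 2 and 16 reads in WT over both treatments. Serpina1f, Serpina1a, Serpina1c, Serpini2, Serpinb6e, Serpinb13, Serpinb3d, Serpina3b, Serpina3k and Serpinb1c had at most 10 reads in any group. The 12 members with no read were Serpina4-ps1, Serpina5, Serpina3a, Serpina3c, Serpina3m, Serpinb6d and the 6 Serpinb9 paralogs Serpinb9c to Serpinb9h.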
